A study of Mus musculus with 6 samples.

Results

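A set of 10 genes that carry macrophage iron and heme traffic was examined in bone marrow-derived macrophages of mice that had breathed cigarette smoke or room air: the ferritin subunits Fth1 and Ftl1, the transporters Tfrc, Slc11a1, Slc11a2 and Slc40a1, the ferroxidase Cp, the heme-degrading enzyme Hmox1, and the iron regulatory proteins Aco1 and Ireb2. The 10 genes were picked by symbol from the 19386 genes of the authors' deposited table, with results of that table already known. The means and the smoke comparison in it therefore serve below as a description and not as a test. Between the groups, the level of Cp was 8.13 times as high after smoke and that of Ireb2 was 0.776 times the room-air level in the authors' deposited table. The Ireb2 call ended when a trend with GC content and transcript length was removed (adjusted p = 0.982). The other 8 genes did not pass the authors' test in that table.

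The macrophages came from C57BL/6 animals of wild-type genotype, and nothing else than the exposure separated the groups in the labels. The sample descriptions of both groups also carry the tag ctl, which is not explained in the sources used here. Marrow cells freed of erythrocytes were grown with L929 supernatant, which supplies macrophage growth factor, and were harvested on day 11. Each group, Room Air and Cigarette Smoke, held 3 libraries of total RNA. The labels describe marrow taken per mouse but do not state that every library is a different animal, so the spread behind the p-values is that between libraries, which may be technical. The smoke was breathed by the mouse before the culture began; its dose and duration and the age and sex of the animals are not given in the sources used here. All cells were therefore cultured outside the exposed animal, which limits them as a model of macrophages in smoke.

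Macrophages take in iron bound to transferrin through the transferrin receptor and, in far larger amounts in the body, as heme from old red cells. Heme oxygenase opens the heme ring and frees the iron, ferritin stores it, and ferroportin, helped by a ferroxidase, returns it to the plasma. Iron regulatory proteins, active when iron is scarce, bind a hairpin called the iron-responsive element: at the start of an mRNA they block its translation, and in the transferrin receptor's 3′ UTR they protect the mRNA from decay. Changes in ferritin or ferroportin protein by this route need not show as changes in mRNA.

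The hairpin's core was searched for in the transcripts of the 10 genes because it is the sequence that the regulatory proteins read. The letters searched were a C, NNNNN and the loop CAGTGN (N is any base), on the transcript strand only and with no second motif, followed by 5 bases that were compared with the 5 bases before the loop (Watson-Crick and G-T pairs counted). Sequences are from GENCODE M21 transcripts on GRCm38 and run 5′ to 3′ with T for U. Each line holds 30 bases, all within 1 exon, and the capitals mark the 6-base loop. The first 3 lie in 5′ UTRs, where binding would act on translation, and the next 4 in the 3′ UTR of Tfrc. The last line, in a 3′ UTR of Slc11a2, has 4 of 5 stem pairs, and the others have 5 of 5.
Fth1-201, chr19:9982732-9982761, plus strand: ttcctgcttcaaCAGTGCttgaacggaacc
Ftl1-201, chr7:45459778-45459807, minus strand: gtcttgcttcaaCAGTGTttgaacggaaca
Slc40a1-201, chr1:45925464-45925493, minus strand: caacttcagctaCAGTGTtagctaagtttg
Tfrc-201, chr16:32631219-32631248, plus strand: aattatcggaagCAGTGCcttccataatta
Tfrc-201, chr16:32631598-32631627, plus strand: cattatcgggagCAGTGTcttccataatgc
Tfrc-201, chr16:32631663-32631692, plus strand: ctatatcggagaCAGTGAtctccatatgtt
Tfrc-201, chr16:32631710-32631739, plus strand: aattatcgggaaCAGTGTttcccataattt
Slc11a2-205, chr15:100395152-100395181, minus strand: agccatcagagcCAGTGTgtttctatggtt

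The ferritin pair shared 26 of the 30 printed bases, whereas the Fth1 and Slc40a1 sites shared 13. Among the 4 Tfrc sites the shared positions ranged from 18 to 25 of 30. The motif began 132 nt before the coding sequence in Fth1-201, 170 nt before it in Ftl1-201 and 224 nt before it in Slc40a1-201. In Tfrc-201 the motifs lay 892 to 1383 nt past the end of the coding sequence, and in Slc11a2-205 the motif lay 41 nt past it. Not every transcript carried them: 4 of 5 coding transcripts of Fth1, 2 of 3 of Ftl1, 1 of 4 of Slc40a1, 1 of 3 of Tfrc and 1 of 7 of Slc11a2 did. Over 22527 coding genes, 31 (0.138%) held a match with 5 stem pairs in a 5′ UTR and 144 (0.639%) in a 3′ UTR. A match with at least 4 pairs was found in a 3′ UTR of 4.47% of coding genes, and in either UTR of 5.38%. The search allowed no unpaired base within the stem, so the count of 4 pairs for Slc11a2 does not show a weaker hairpin. No match with 4 or more pairs was found in UTRs of Cp, Hmox1, Slc11a1, Aco1 or Ireb2, which says only that these letters are not there. A match is a description of sequence and was not tested as a binding site.

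**Figure D1:**
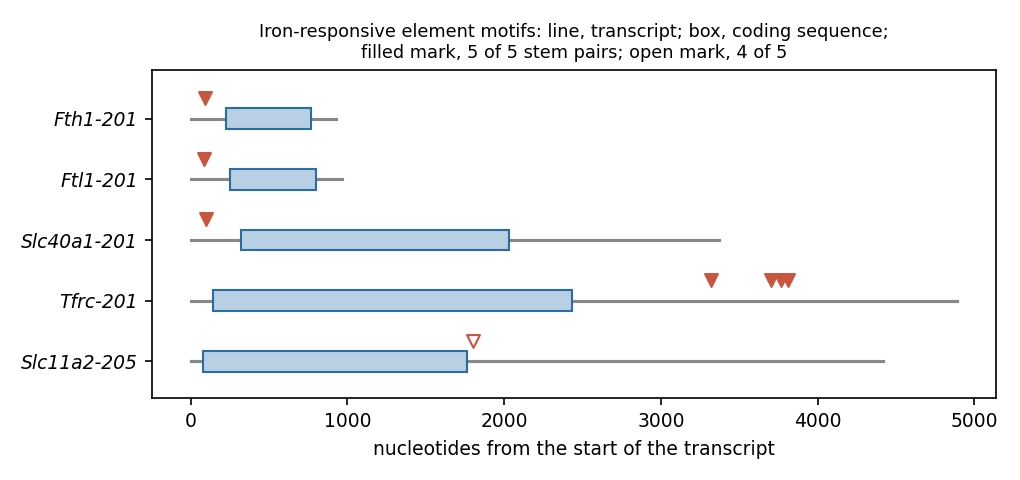
Positions of the motif in 5 transcripts, in nucleotides from the transcript start; lines are transcripts, boxes coding sequences, filled marks motifs with 5 of 5 stem pairs and the open mark the motif with 4 of 5. The marks lie before the box in Fth1-201, Ftl1-201 and Slc40a1-201 and after it in Tfrc-201 and Slc11a2-205.

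The expression values are the authors' group means of counts divided by size factors, with the authors' DESeq2 comparison of smoke with room air; the table gives no value per library, so neither depth nor spread per library is known. Macrophage identity was checked first: all 10 macrophage markers were listed with a mean of at least 10, and their summed means were 57440 in room air and 58340 after smoke in the authors' deposited table. One of the 10, Spi1, was higher after smoke (log2 0.41, DESeq2 adjusted p = 0.00813 in the authors' deposited table). Lyz2 made up a large part of the sum (23168 and 24772), and Mrc1, the mannose receptor, had means of 3601 and 2197 (log2 -0.71, DESeq2 adjusted p = 0.0836) in the authors' deposited table. Erythroid markers, which matter here because red cell precursors are rich in iron genes, were at summed means of 0.129 and 0.801 for the 2 of 10 listed in the authors' deposited table. Neutrophil markers summed to 14.5 and 21.0 (4 of 10 listed, 1 with a mean of at least 10), B cell markers to 146 and 122.6 (5 of 8, with Ighm alone reaching 10) and stromal markers to 45.6 and 8.10 (6 of 6, none called) in the authors' deposited table, room air first. In bulk RNA, fewer cells of a type and less RNA per cell cannot be told apart.

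Expression per kilobase of transcript, the scale on which different genes can be compared, fell over a wide range. Ferritin stood at the top: per kilobase of its principal transcript, the room-air and smoke means were 17194 and 18989 for Fth1 and 10932 and 13153 for Ftl1 from the authors' deposited table. Together the ferritin genes made up 0.592% of all normalized counts in room air and 0.691% after smoke. Hmox1 followed at 843 and 1137 per kilobase, Slc11a1 at 404 and 486, and Slc40a1 at 219 and 157, again from the authors' deposited table. Lower levels were found for Slc11a2 (79.3 and 110), Aco1 (65.4 and 69.9), Ireb2 (74.8 and 58.0) and Tfrc (28.3 and 33.1) per kilobase, and Cp came last with 3.41 and 27.7, from the authors' deposited table. Whether neighbours in this order differ beyond their spread between libraries cannot be said from group means. The order at the top depended on the transcript chosen, an alternative chosen after seeing the data: with the longest transcript of each gene, Ftl1 (12042, mean of both groups) lay above Fth1 (8151), and Slc11a2 fell to rank 8.

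**Figure D2:**
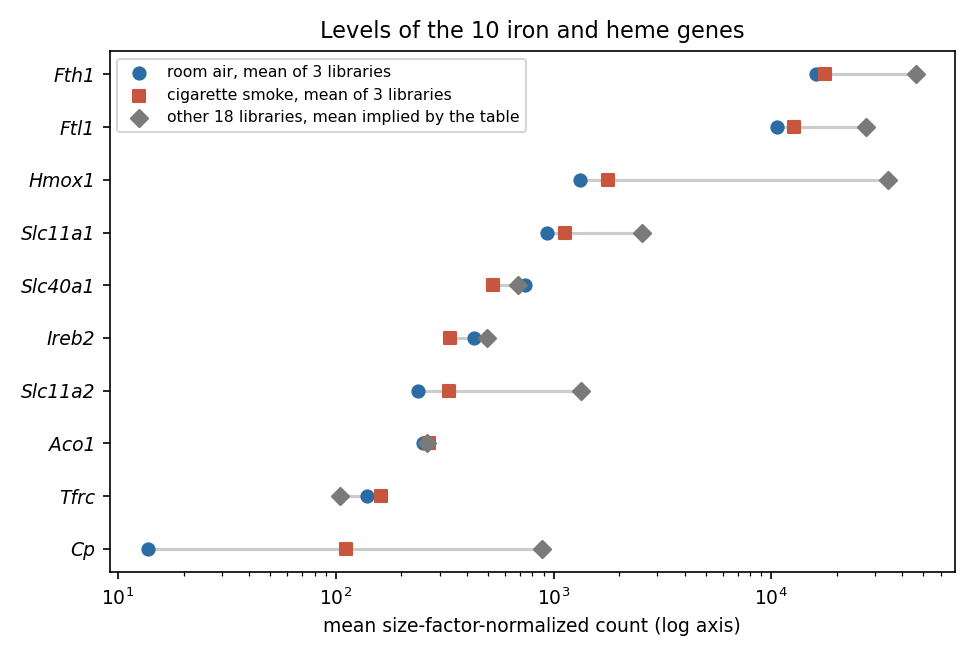
Mean size-factor-normalized count (log axis) of each gene in room air, after cigarette smoke and, implied by the table, over the other 18 libraries of the authors' fit. The room-air and smoke means lie close together for 9 genes and apart for Cp, and the other 18 libraries stand far to the right for Cp and Hmox1.

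Across the 12082 genes with an adjusted p in the authors' deposited table, 929 (7.69%) were called at an adjusted p under 0.05, 502 (4.15%) higher and 427 (3.53%) lower after smoke. Of the 10 iron and heme genes, 1 was called higher (Cp), 1 lower (Ireb2) and 8 neither; since the members were chosen with this comparison known, nothing is read from that count. The fold changes of 8 of the 10 were positive, beside 5999 of the 12082 genes tested, and nothing is read from that either. The members' median was 0.25 on the log2 scale against -0.0029 over all genes tested in the authors' deposited table. As an alternative, a trend of the fold changes with the GC content and length of the transcripts was fitted and removed, which left 153 genes called. The strength of the trend is not given here and its source was not tested. On that scale the members' median was 0.08 against -0.0142 over all genes. There 1 member, Cp, remained called (3.26, adjusted p = 0.0495), beside 1.27% of all genes.

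Iron uptake was represented by the transferrin receptor and the divalent metal transporters. Tfrc, which imports transferrin iron, had a mean normalized count of 139 in room air and 162 after smoke (log2 0.23, SE 0.37, DESeq2 adjusted p = 0.775) in the authors' deposited table. Its 95% interval, from -0.50 to 0.96, was among the wider ones of the list and left room for a near doubling. With the trend removed Tfrc was at 0.51 (adjusted p = 0.691). Slc11a2, or DMT1, which moves ferrous iron out of the endosome, stood at 240 and 332 in the authors' deposited table. The log2 difference of Slc11a2 was 0.48 (SE 0.22), and DESeq2 gave it p = 0.0275, or 0.157 after adjustment, in the authors' deposited table. Slc11a1, or NRAMP1, which pumps metal out of the phagosome and withholds it from ingested bacteria, stood at 934 and 1124 (log2 0.27, SE 0.16, DESeq2 adjusted p = 0.326) in the authors' deposited table. Phagosomal Slc11a1 exceeded endosomal Slc11a2 per kilobase by 5.09 times in room air and 4.43 times after smoke. With the trend removed Slc11a1 was at 0.08 and Slc11a2 at 0.52 on the log2 scale. None of the 3 uptake genes passed the authors' test.

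For storage, Fth1, the ferritin heavy chain that oxidizes iron on entry, had means of 15973 in room air and 17641 after smoke in the authors' deposited table. Its log2 difference was 0.14 (SE 0.27), with a 95% interval of -0.39 to 0.67 (DESeq2 adjusted p = 0.816 in the authors' deposited table). Ftl1, the light chain that supports the mineral core, stood at 10582 and 12732 (log2 0.27, SE 0.23, DESeq2 adjusted p = 0.534) in the authors' deposited table. Both intervals lay inside a doubling or halving. With the GC and length trend removed, Fth1 came to 0.02 and Ftl1 to -0.13, so the sign of the uncalled Ftl1 difference turned. The heavy-to-light ratio per kilobase was 1.57 in room air and 1.44 after smoke with the principal transcripts, but 0.709 and 0.650 with the longest ones, so which chain is the more abundant depends on the transcript chosen. Ferritin counts are uncertain where reads fit near-identical copies: the pseudogene Ftl2-ps was listed at 175 and 361 (log2 1.04, SE 0.50, DESeq2 adjusted p = 0.185) in the authors' deposited table. A miRNA gene of 109 nt inside Ftl1 on the same strand, Gm22133, was listed at 1546 and 2087 in the authors' deposited table, and which of these reads belong to Ftl1 is not known.

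Export rests on ferroportin and, for the oxidation of iron as it leaves, on ceruloplasmin. Slc40a1, ferroportin, the only known cellular iron exporter, had means of 739 in room air and 528 after smoke (log2 -0.48, SE 0.34, DESeq2 adjusted p = 0.412) in the authors' deposited table. Its 95% interval ran from -1.14 to 0.18 and reached past a halving, and with the trend removed the difference was -0.30 (adjusted p = 0.850). The ratio of exporter to importer, Slc40a1 over Tfrc per kilobase, was 7.74 in room air and 4.73 after smoke, without a test of its own.

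Cp, a copper-containing ferroxidase made in secreted and membrane-bound forms, had a mean of 13.7 in room air and 111.6 after smoke in the authors' deposited table. The log2 difference of Cp was 3.03 (SE 0.95, DESeq2 adjusted p = 0.0275) in the authors' deposited table, and its 95% interval ran from 1.17 to 4.90. The size of the Cp difference is therefore known only within wide limits. Among 3482 genes of like level the SE of Cp lay at percentile 99.6, where the median SE was 0.24. How evenly the 3 smoke libraries share the Cp mean is not given by the table. Summed stromal markers lay the other way (45.6 in room air and 8.10 after smoke in the authors' deposited table) and summed neutrophil markers, nearly all of them Mmp8 (14.3 and 20.5, DESeq2 adjusted p = 0.731), were at 14.5 and 21.0; their part in the Cp difference was not tested. Cp overlaps Hps3 over 13201 nt on the opposite strand. The library kit was directional, but the strand setting used in counting is not given in the sources used here, and Hps3 stood at 352 and 278 (log2 -0.32) in the authors' deposited table.

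Heme breakdown was represented by Hmox1, the inducible heme oxygenase, a target of the stress factor NRF2 and of the heme-sensing repressor Bach1. Hmox1 had means of 1323 in room air and 1784 after smoke (log2 0.43, SE 0.38, DESeq2 adjusted p = 0.551) in the authors' deposited table. Its 95% interval, -0.32 to 1.18, was wide for a gene of this level: the SE of Hmox1 lay at percentile 97.7 among genes of like level, whose median SE was 0.14. A doubling of Hmox1 therefore lies inside the interval. With the trend removed the difference was 0.19 (adjusted p = 0.943).

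Of the regulators, Aco1, or IRP1, which is an aconitase when it holds an iron-sulfur cluster and binds the hairpin when it does not, had means of 251 and 268 (log2 0.11, SE 0.13, DESeq2 adjusted p = 0.669) in the authors' deposited table. Its interval, -0.14 to 0.36, was narrow. Ireb2, or IRP2, which is degraded when iron is plentiful, had means of 431 in room air and 335 after smoke (log2 -0.36, SE 0.12, DESeq2 adjusted p = 0.0482) in the authors' deposited table. The transcript of Ireb2 is long and poor in GC (5770 nt, 39.0% GC), and with the trend removed its log2 difference was -0.03 (adjusted p = 0.982). The authors' call for Ireb2 thus does not hold with the trend removed. The Ireb2 to Aco1 ratio per kilobase was 1.14 in room air and 0.829 after smoke, without a test of its own. The difference between the log2 fold changes of Ireb2 and Aco1 was -0.47 as deposited and -0.10 with the trend removed.

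**Figure D3:**
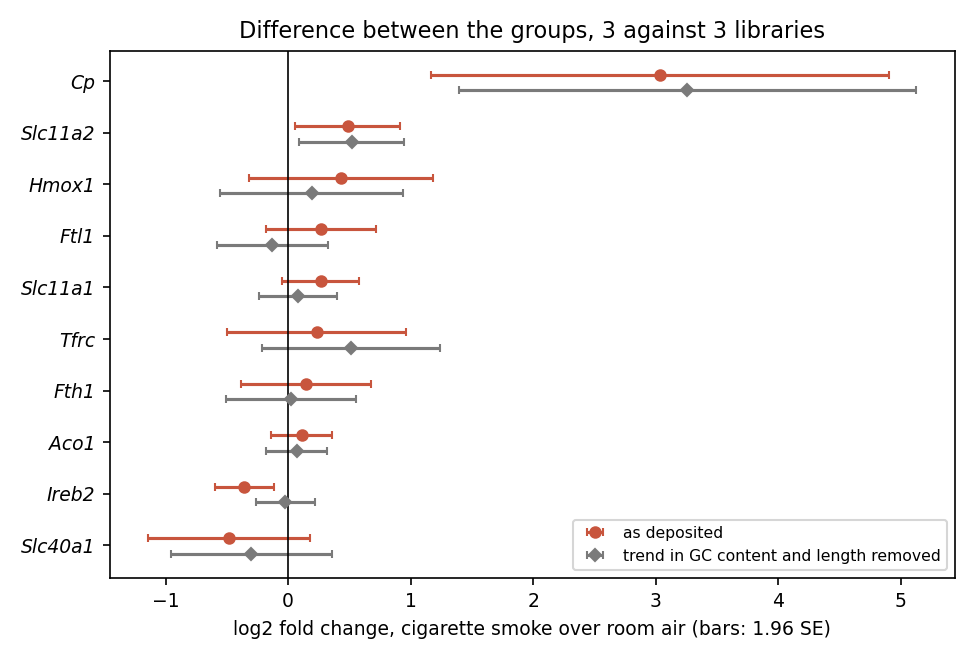
Log2 fold change of each gene, cigarette smoke over room air, in the authors' deposited table (circles) and with the trend in GC content and length removed (diamonds); bars are 95% intervals. The bar of Cp lies far right of 0 and is the widest, while the diamond of Ireb2 sits near 0.

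The deposited 24-library mean also covers 18 libraries that are not analysed here, and their mean follows from it. The 24-library mean is among the values used in choosing the genes, so the mean over those 18 is given as a description. For Hmox1 it was 34499, which is 26.1 times the room-air mean and 19.3 times the smoke mean in the authors' deposited table. Hmox1 took 0.496% of all normalized counts there against 0.0295% in room air, and ranked 7 among all genes rather than 434 by the mean of the air and smoke groups. For Cp the mean over the other libraries was 882, which is 64.2 times the room-air and 7.90 times the smoke mean in the authors' deposited table. Slc11a2 (1336), Slc11a1 (2557), Fth1 (46374), Ftl1 (27143) and Ireb2 (493) were also above both groups in those libraries, while Tfrc (105) was below both in the authors' deposited table. A mean there above both groups was common among all genes tested, so nothing is read from the number of members above both. The median ratio of those libraries to room air was 1.1 over all genes tested, and Ireb2, at 1.14, was near it. Of all genes tested, 3.22% had a mean there at least 10 times both groups, as Hmox1 did and Cp did not. If the authors' comparison was fitted to all 24 libraries together, the SE values given above also carry the spread among these 18. The header gives only the 24-library mean, so that is not known.

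Splicing gave a measure that the choice of genes did not use, with a value per library. The authors' JuncBASE table held 7 events in 4 of the genes (Fth1, Slc40a1, Slc11a1 and Slc11a2), 5 of them retained introns. Percent inclusion was tested with limma over all 10376 events of the table, on the log2 odds with 1 added to both percentages. No event passed an adjusted p under 0.05 (0%, lowest adjusted p 0.128), with 1125 at an unadjusted p under 0.05. The authors' own corrected p-values also called 0 events, with 431 at an unadjusted p under 0.05 in the authors' deposited table. On simulated events limma found 0% of those changed by 2 log2 odds and 40.5% of those changed by 4, so differences of the size found in these genes were not detectable here.

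Retention over the 1992 introns with a value in all 6 libraries was lower after smoke: their mean was 15.6%, 16.7% and 14.8% in the room-air libraries and 10.3%, 11.3% and 12.8% after smoke. The 3 fully measured introns in these genes all had every smoke value below every room-air value, and so did 38.7% of those 1992 introns. The part of this general shift in the introns described next was not tested.

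The 279-nt intron of Slc11a1 between coding exons (GRCm38 chr1:74383745-74384023) was retained at 15.4%, 10.5% and 13.4% in room air and at 4.55%, 4.26% and 7.38% after smoke. The groups did not overlap: all 3 smoke libraries were below the lowest room-air library. The means were 13.1% ± 2.47 and 5.40% ± 1.72 (SD, n = 3 each), a difference of -7.69 percentage points (log2 odds -1.28, SE 0.47, limma adjusted p = 0.409). The same intron was listed in the authors' rMATS table, which counts reads in the intron body too and in which 14.5% of introns had a false discovery rate under 0.05, 13.8% of all with the higher level in set 1. In the authors' deposited table its retention differed by 6.90 points between the 2 sample sets (false discovery rate 0.00677); the sets are not named, so no direction is drawn.

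A longer intron of Slc11a1 (1543 nt, chr1:74381895-74383437) was retained at 6.12%, 9.79% and 6.11% in room air and at 4.0%, 1.54% and 2.94% after smoke. Here too the groups did not overlap, with means of 7.34% ± 2.12 and 2.83% ± 1.23 (SD, n = 3 each; limma adjusted p = 0.458). A cassette exon of the same gene was included at 100% in 5 libraries and at 94.6% in smoke replicate 3. Both Slc11a1 introns thus lay lower after smoke in value, the difference in the cassette exon rested on 1 library, and none of these events passed the test over all events.

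Fth1 had an intron that was nearly always retained in the event table (233 nt, chr19:9984328-9984560). Its inclusion was 96.7%, 98.7% and 99.2% in room air and 92.6%, 95% and 96.2% after smoke. Every smoke library was below every room-air library, with means of 98.2% ± 1.32 and 94.6% ± 1.83 (SD, n = 3 each; limma adjusted p = 0.464). The event ends 1 base past the annotated intron, so the spliced form counted in this event is not the junction that GENCODE lists. In ferritin light chain, the authors' rMATS table held a coding intron of 251 nt (chr7:45458284-45458534), with retention 1.30 points apart between the unnamed sets (false discovery rate 8.34e-05 in the authors' deposited table).

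Slc40a1 had an alternative acceptor seen in junction reads (intron chr1:45919171-45921155), which lengthens an exon by 170 nt compared with the annotated intron chr1:45919001-45921155. It was used at 4.55%, 6.38% and 4.0% in room air and at 0%, 0% and 3.28% after smoke. Smoke replicates 1 and 2 had none of it and the groups did not overlap, with means of 4.98% ± 1.25 and 1.09% ± 1.89 (SD, n = 3 each; limma adjusted p = 0.409). Among 953 such acceptors with 6 values, 5.35% had all smoke libraries below all room-air libraries and 5.04% had the opposite. The outcome turned on 1 library: without smoke replicate 3, limma gave this acceptor an adjusted p of 0.0216 and the 279-nt Slc11a1 intron one of 0.0457. In that fit 1131 events were called, of which 94.8% had a group at exactly 0% or 100% throughout.

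Slc11a2 had 2 introns with values in 5 libraries, as smoke replicate 1 lacked a value for 4169 of the 10376 events, including both of these. The 6108-nt intron (chr15:100389162-100395269) holds the hairpin motif printed above, because the last exon of Slc11a2-205 overlaps it and runs past its upstream edge, and 1 annotated transcript splices over it. Its inclusion was 8.33%, 5.88% and 0% in room air and 8.33% and 6.12% in the 2 smoke libraries with a value, which overlap (limma adjusted p = 0.666). The values of the other intron (465 nt, chr15:100405815-100406279) were 5.00%, 0% and 3.85% in room air and 0% and 3.08% after smoke, overlapping as well (limma adjusted p = 0.798). A difference in the inclusion of the stretch with the motif was not detected with these values from 5 libraries.

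**Figure D4:**
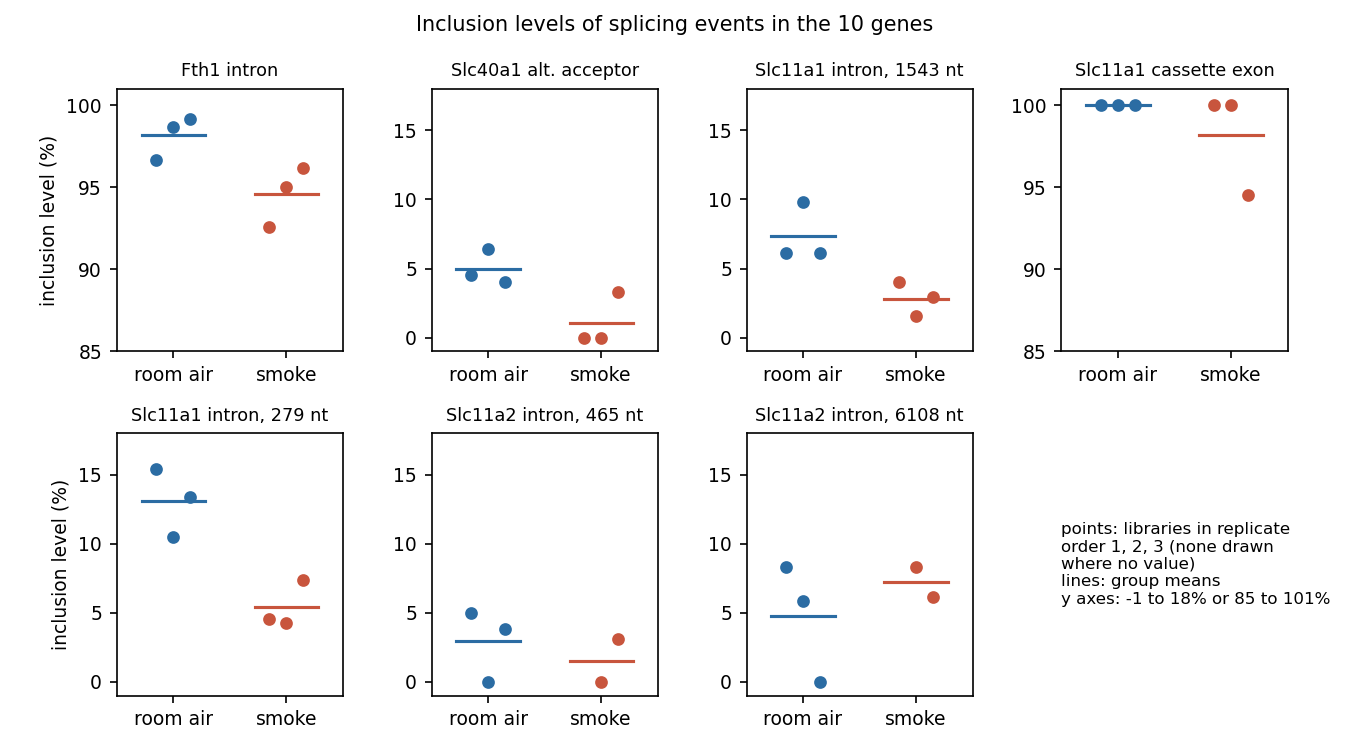
Percent inclusion of the 7 events in the 10 genes, each point a library and each line a group mean; the y axis spans the upper end of the scale for events that are nearly always included and the lower end for the others, as printed on the axes. Smoke points lie below all room-air points in the Fth1 intron, the Slc40a1 acceptor and the Slc11a1 introns, and overlap in the Slc11a2 introns.

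The rMATS table held 5 introns in 4 of the genes, of which 2, those of Slc11a1 and Ftl1 given above, had a false discovery rate under 0.05, beside 14.5% of all 3887 introns in the authors' deposited table. The remaining introns, in Cp, Hmox1 and Slc11a1, differed by 4.0, -0.2 and 2.8 points with false discovery rates of 1.0, 1.0 and 0.439 in the authors' deposited table. Tfrc, Aco1 and Ireb2 had no event in either table. The authors' merged transcript assembly held 4 to 16 transcripts per gene. All 16 of Fth1 contained an intron that GENCODE lacks, as did 11 of 14 for Ftl1 and 5 of 6 for Hmox1, whereas 10 of 16 Cp transcripts and 5 of 6 Tfrc transcripts followed an annotated chain of introns.

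The wider pathway was followed in 62 other iron and heme genes, of which 51 were listed and 41 had an adjusted p in the authors' deposited table. Of these 41, 2 were called higher after smoke, 0 lower and 39 neither, with a median log2 difference of 0.10. Over all genes tested, 4.15% were called higher, 3.53% lower and 7.69% in either direction, so the share of calls in the list was near the background and is no result about it. Iscu, the scaffold on which iron-sulfur clusters are built, rose from 164 to 245 (log2 0.57, SE 0.14, DESeq2 adjusted p = 0.00256) in the authors' deposited table. Pcbp1, the chaperone that delivers iron to ferritin, rose from 836 to 1006 (log2 0.27, SE 0.09, DESeq2 adjusted p = 0.0378) in the authors' deposited table. With the trend removed, Iscu was at 0.30 (adjusted p = 0.341) and Pcbp1 at -0.04 (adjusted p = 0.943), so neither call held. The median of the list was then 0.03.

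By role, the sublists had medians from -0.23 for the transferrin cycle (6 genes tested) to 0.46 for siderophore handling (1 gene, Lcn2) in the authors' deposited table. Heme synthesis (8 tested, median 0.06), heme breakdown and transport (9 tested, median 0.11) and the heme-responsive regulators (3 tested, median -0.14) had no called gene in the authors' deposited table. Mitochondrial iron and iron-sulfur genes (8 tested) had the median 0.35 and 1 call, Iscu, and storage genes (5 tested) the median 0.05 and 1 call, Pcbp1, in the authors' deposited table. After removal of the trend, the medians were -0.08 for the transferrin cycle, 0.17 for siderophore handling, 0.22 for the mitochondrial genes and -0.04 for storage. Ncoa4, the receptor that brings ferritin to the lysosome, stood at 2387 and 2299, and Fbxl5, the ubiquitin ligase subunit that removes Ireb2, at 227 and 210 in the authors' deposited table. Alas1, the first enzyme of heme synthesis, stood at 243 and 315 in the authors' deposited table. Nfe2l2, which encodes NRF2, was at 2616 and 2292, the hemopexin receptor Lrp1 at 9109 and 7638, and the lysosomal iron channel Mcoln1 at 557 and 443 in the authors' deposited table. None of these 6 passed the authors' test, with adjusted p-values by DESeq2 from 0.0679 for Mcoln1 to 0.933 for Ncoa4 in the authors' deposited table. In the hepcidin axis, no gene was tested, and Heph, the ferroxidase homologue of Cp, was listed at 0.645 and 0.601 in the authors' deposited table.

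**Figure D5:**
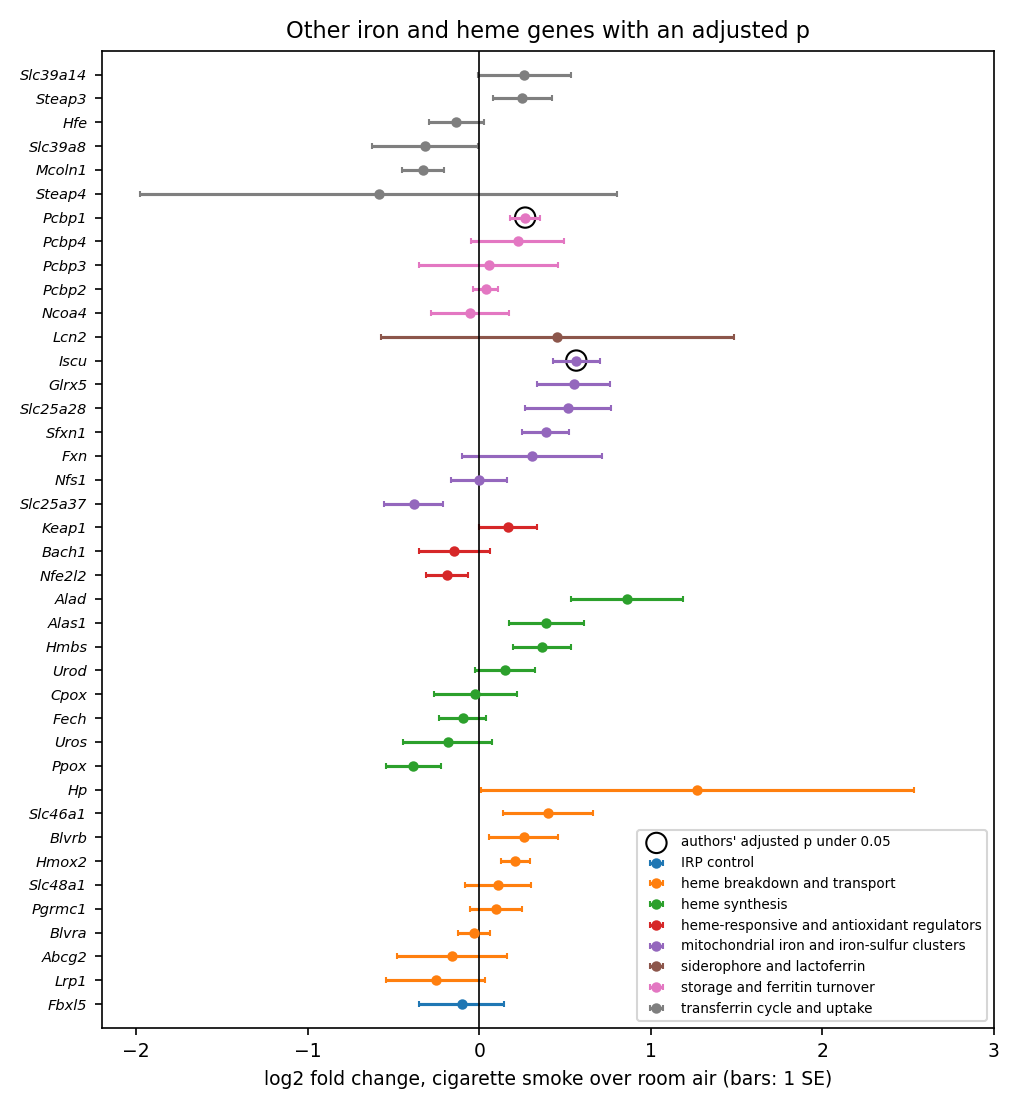
Log2 fold change, cigarette smoke over room air, with bars of 1 SE for 40 of the 41 other iron and heme genes with an adjusted p in the authors' deposited table, coloured by role. Rings mark Iscu and Pcbp1, the 2 genes called at an adjusted p under 0.05.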

How the data were processed

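Gene levels are the signal the authors deposited: per the file headers, group means of size-factor-normalized counts for each exposure (3 libraries) and for 24 libraries. The log2 fold changes with their SE, the Wald score and the p-values with their adjustment are also the authors' deposited values. The header marks the fold changes as MAP (maximum a posteriori) estimates, and the prior behind them is not given in the sources used here. STAR, DESeq2, SAMtools 1.9 and bedtools 2.27.1 and the build mm10 are named in the submitters' processing notes; the counting program is not given in the sources used here. The percent inclusion levels, from JuncBASE, and the other deposited quantity, the inclusion difference from rMATS, are the authors' values; 6 rMATS columns of per-sample values were not used because their groups are not stated. The merged assembly was used for transcript structures. Only group means of expression were used, so the count test planned for libraries was replaced by the authors' comparison.

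Computed here were the mean of the other 18 libraries (24 times the 24-library mean, less 3 times each group mean, divided by 18), levels per kilobase of the principal transcript, normal 95% intervals from the SE, and a trend in GC content and log2 length of the longest transcript. The trend was fitted to 12071 genes by weighted least squares in statsmodels 0.14.6 with natural splines from patsy 1.0.2 (4 degrees of freedom per covariate), removed, and the p-values recomputed and adjusted after Benjamini-Hochberg. Inclusion was tested with limma 3.58.1 in R 4.3.3 over all 10376 events, with 1 as pseudocount and Benjamini-Hochberg adjustment. On simulated data with 200 genes changed by 2 log2 units, the trend removal recovered 94.0% and called 13 unchanged genes; 65.0% of event changes of 6 log2 odds were recovered. The alternatives were other thresholds, a floor on the mean, the trend, complete events, another pseudocount, a replicate block and leaving out each library.

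Members and gene lists were chosen with earlier results of these data known. All 10 members are named; of the other iron genes, those called by the authors and the most abundant of each sublist are named (1 gene is not reported here), and in addition Sfxn1 and the Slc11a1 cassette exon, chosen after their values were seen.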

Additional observations from a re-analysis of the deposited data

How the results depend on the processing

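The authors' comparison called 2 of the 10 genes. At an adjusted p under 0.01 the count was 0 (3.03% of all genes tested), and with the trend in GC content and length removed it was 1 (Cp). For the other iron and heme genes the count was 2 as reported, 6 of 41 at an adjusted p under 0.1 (12.8% of all genes tested), 3 (Iscu, Pcbp1 and Sfxn1) among genes with a 2-group mean of at least 50 (10.0% of such genes) and 1 (Sfxn1) with the trend removed. With the trend removed, 9 of the 10 members stayed on their side of the threshold, among them Ftl1, whose uncalled difference turned to -0.13, and Ireb2 did not (-0.03); the cause was not tested. Log2 ratios of the group means with a pseudocount of 1 or 10, and differences centred on the median of all genes, kept the sign of all 10 and carry no test. No leave-one-out of the expression values was possible, since they are group means, and the depth per library is unknown.

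The limma count of 0 events rose to 23 over events with a value in all 6 libraries, and ranged from 0 to 1131 when each library was left out in turn, the highest without cigarette smoke replicate 3. The replicate block gave 0 events; same-numbered libraries did not deviate together (r = 0.0177, -0.0404 and -0.0888), so the numbers give no pairing, and the block moved no count. Over all these settings the adjusted p ranged from 0.169 to 0.679 for the Fth1 intron, from 0.0216 to 0.679 for the Slc40a1 acceptor and from 0.0457 to 0.609 for the 279-nt Slc11a1 intron. The 465-nt Slc11a2 intron turned to 0.13 points without smoke replicate 2, a difference that was never called.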

Other observations

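Among the other iron genes, Lcn2 is given as an example of a mean in the other 18 libraries far above both groups. Not all genes of the list were like it: Lrp1 was at 8330 there, against 9109 in room air and 7638 after smoke. Over all genes tested, 3.22% had a mean there at least 10 times both groups. Lcn2, which binds bacterial siderophores, had a mean of 388 there and means of 2.06 in room air and 3.62 after smoke in the authors' deposited table. Its log2 difference between smoke and room air was 0.46 (SE 1.03, DESeq2 adjusted p = 0.856) in the authors' deposited table. What those libraries are is not analysed here.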
